A study of Mus musculus with 21 samples.

Results

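The genes described here are 9 genes of plasma cell fate, taken by symbol from a table of 23337 genes: Irf4, Prdm1, Xbp1, Pou2af1, Sdc1, Slamf7, Derl3, 2010001M09Rik (now named Mzb1) and Igj (now named Jchain). All 9 had a row in the table and all 9 passed the filter on low counts in every fit. They were followed in 21 libraries of sorted B cells from C57BL/6 mice aged 8 to 12 weeks. The tissues were spleen, Peyer's patches (PP), which are lymphoid tissue of the intestinal wall, and the mesenteric nodes that drain the gut (mLN). Each tissue had 1 pooled library of cells labelled HEL neg, 3 of HEL pos (named Pool, 392 and 399) and 3 of BCL2 HEL pos (named 922, 926 and 950), which makes 9 groups. The labels expand neither HEL nor BCL2, name no promoter, and do not say how many mice were pooled or whether a number stands for a mouse, so p-values here measure the spread among libraries, part of which may be technical. The labels state that mice of 1 group shared a cage, so cage and kind of cell cannot be told apart. The series names self-reactive B cells of the gut as its subject, and the comparisons below ask how these genes differ between tissues and between the 3 kinds of cells.

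Plasma cells are the antibody-secreting end stage of the B cell lineage. In the textbook scheme the transcription factor Irf4 rises first and promotes Prdm1, which encodes Blimp-1, a repressor that shuts down the B cell programme, while Xbp1 enlarges the endoplasmic reticulum and its secretory machinery. Surface syndecan-1 (Sdc1, CD138) and Slamf7 mark the resulting cells, Derl3 and Mzb1 serve protein folding and disposal in the endoplasmic reticulum, and the joining chain (Igj) links IgM and IgA into polymers. Irf4 is also raised by antigen receptor signalling in B cells that do not become plasma cells, and Pou2af1 (OCA-B), a coactivator of octamer factors, is expressed through most of the B lineage.

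The promoters of Derl3, Sdc1, Slamf7 and Igj are shown because the first 3 genes were higher and the fourth lower in mLN than in spleen, in both HEL pos and BCL2 HEL pos cells. Each is the 300-base window around the start of the gene in the RefSeq annotation of build GRCm38.p6, read 5′ to 3′ on the strand of the gene. Capitals mark matches on either strand to CCACG, 1 arm of the endoplasmic reticulum stress response element, or to ACGTG, the core of the unfolded protein response element. The windows are chr10:75893148-75893447 (plus strand) for Derl3, chr12:8771146-8771445 (plus strand) for Sdc1, chr1:171648950-171649249 (minus strand) for Slamf7 and chr5:88527848-88528147 (minus strand) for Igj. For Slamf7 the GENCODE M21 annotation, used for the loci below, starts the gene at chr1:171653035, upstream of and outside this window.
Derl3: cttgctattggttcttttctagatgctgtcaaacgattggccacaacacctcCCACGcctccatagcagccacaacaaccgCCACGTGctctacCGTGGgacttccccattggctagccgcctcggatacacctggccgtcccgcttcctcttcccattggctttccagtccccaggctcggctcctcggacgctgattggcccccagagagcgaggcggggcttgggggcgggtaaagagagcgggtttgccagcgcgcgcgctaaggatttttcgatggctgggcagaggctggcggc
Sdc1: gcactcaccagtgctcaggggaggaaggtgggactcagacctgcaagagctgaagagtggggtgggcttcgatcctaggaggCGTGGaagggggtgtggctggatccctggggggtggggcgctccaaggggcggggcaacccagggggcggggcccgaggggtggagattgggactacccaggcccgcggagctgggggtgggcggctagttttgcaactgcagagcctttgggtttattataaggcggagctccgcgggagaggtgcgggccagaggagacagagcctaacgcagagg
Slamf7: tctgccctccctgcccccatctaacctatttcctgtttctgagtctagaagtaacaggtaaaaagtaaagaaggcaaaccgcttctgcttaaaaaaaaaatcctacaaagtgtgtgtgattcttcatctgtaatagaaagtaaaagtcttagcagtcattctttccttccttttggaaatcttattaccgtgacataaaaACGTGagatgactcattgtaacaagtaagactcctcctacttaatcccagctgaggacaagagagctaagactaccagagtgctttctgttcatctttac
Igj: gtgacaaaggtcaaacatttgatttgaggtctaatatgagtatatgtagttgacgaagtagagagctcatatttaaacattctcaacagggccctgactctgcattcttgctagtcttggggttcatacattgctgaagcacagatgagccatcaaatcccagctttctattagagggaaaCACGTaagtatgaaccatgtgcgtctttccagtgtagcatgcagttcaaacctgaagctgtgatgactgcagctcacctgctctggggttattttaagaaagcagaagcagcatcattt

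Derl3 held 3 matches to CCACG and 2 to ACGTG, and the 2 ACGTG matches overlap each other and 1 of the CCACG matches within a single CCACGTG. Of 32851 mouse promoters of the same length, 32.77% held CCACG at least once and 3.047% held it at least 3 times. Sdc1 held 1 match to CCACG, and Slamf7 and Igj held 1 match to ACGTG each. Promoters were searched for 8 of the 9 genes, and 2010001M09Rik, on chromosome 18, was left out of the search. Of the 8, 5 held CCACG (Irf4, Prdm1, Sdc1, Derl3 and Pou2af1). ACGTG, found in 19.62% of all promoters, was held by 4 (Slamf7, Derl3, Igj and Pou2af1). The Prdm1 window (chr10:44458699-44458998, minus strand) lies inside the gene as GENCODE M21 gives it, which starts at chr10:44528501. The octamer ATGCAAAT, searched because Pou2af1 works with octamer factors, had 0 matches in the 8 windows and occurs in 1.735% of all promoters. The interferon-stimulated response element, searched as a pair of GAAA repeats separated by NN, also had 0 matches and occurs in 3.443%. A match describes the letters of the window and was not tested as a binding site.

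Library totals ran from 5475131 to 11340876 counts, and a level of 3 counts, taken as the floor of counting error alone, came to 0.263 to 0.518 CPM (each count divided by the TMM-scaled total of its library, on a common scale). Immunoglobulin segment and constant genes had 0 rows in the table, so antibody transcripts themselves were not analysed here. Transcripts of 4 Y-linked genes summed to no more than 0.864 CPM wherever HEL pos cells were numbered 392 or 399, and to between 96.0 and 164 CPM in the remaining libraries, so sex and the numbered HEL pos libraries cannot be told apart. Xist was present throughout, at 237 to 604 CPM in those numbered libraries and 79.0 to 357 CPM in the remaining ones. In comparisons with HEL pos cells, the BCL2 HEL pos libraries and the HEL neg pools thus all held both kinds of transcript. They were set partly against HEL pos libraries nearly without the Y-linked ones. The part of sex was not tested. Bcl2 itself lay between 134.7 and 181 CPM in the BCL2 HEL pos libraries and between 49.7 and 100.1 CPM elsewhere. The summed level of 9 B cell markers was between 18195 and 31068 CPM in every library. Other cell types left traces: 6 granulocyte markers summed to 48.2 to 190 CPM in the spleen HEL pos libraries and 60.3 CPM in spleen HEL neg, against at most 1.02 CPM in every other library, and 16 epithelial markers reached 264 to 1133 CPM in PP HEL pos and 1265 CPM in PP HEL neg, against at most 72.2 CPM in spleen and mLN. In such bulk libraries a smaller number of plasma cells and less RNA per plasma cell cannot be told apart.

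Compared per kb of merged exon (GENCODE M21), Pou2af1 and 2010001M09Rik stood high and Prdm1 and Sdc1 low. Pou2af1 (chr9:51213708-51240080, plus strand) had group means of 157 to 328 CPM per kb and 2010001M09Rik 144 to 361 CPM per kb. Xbp1 (chr11:5520659-5525893, plus strand) lay at 61.5 to 94.0 CPM per kb and Irf4 (chr13:30749226-30766976, plus strand) at 21.6 to 70.5. Slamf7 (chr1:171632403-171653035, minus strand) lay at 11.3 to 39.0 CPM per kb, Derl3 (chr10:75893413-75895941, plus strand) at 3.07 to 31.1 and Sdc1 (chr12:8771323-8793715, plus strand) at 1.37 to 11.9. Prdm1 (chr10:44437177-44528501, minus strand) had group means of 0.342 to 2.44 CPM per kb, with 3 to 81 counts in a library, and was the lowest of the 9 genes in every group except the PP HEL neg pool, where Sdc1 was lower (1.37 against 2.44 CPM per kb). Igj (chr5:88519809-88527891, minus strand) had the widest range of the 9 genes, from 2.14 to 205 CPM per kb between group means and 215-fold between single libraries.

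**Figure D1:**
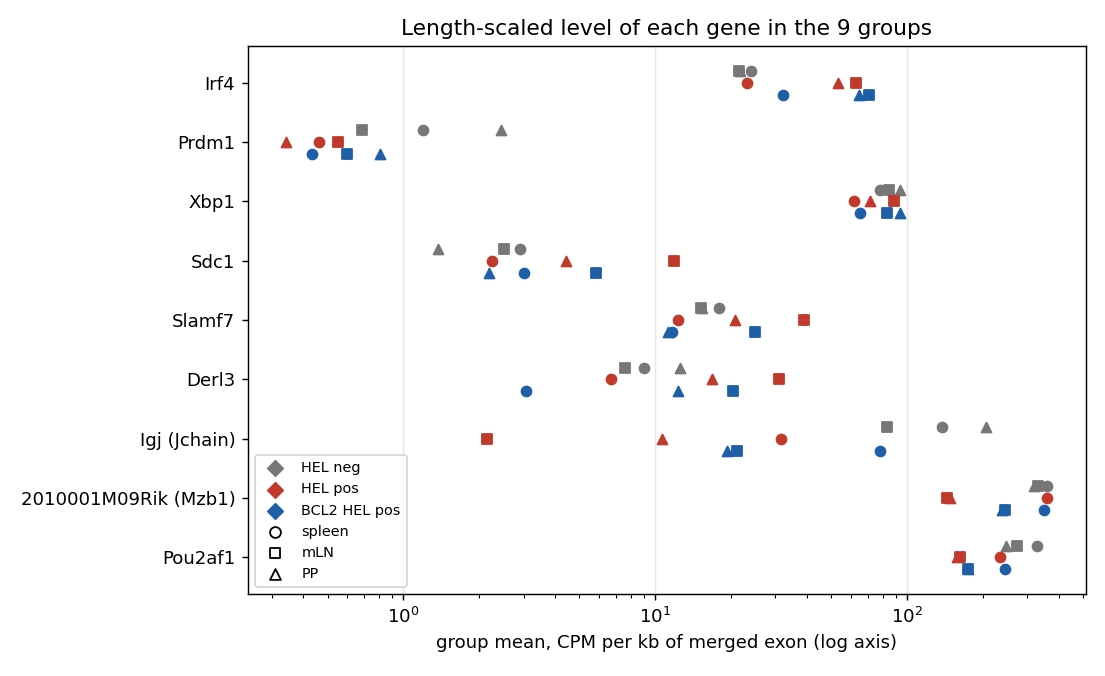
Group means in CPM per kb of merged exon (log axis) for the 9 genes in the 9 groups; colour gives the kind of cell and shape the tissue, with 3 libraries behind each HEL pos and BCL2 HEL pos mean and 1 pool behind each HEL neg value. Prdm1 lies between 0.342 and 2.44 CPM per kb, below Pou2af1 and 2010001M09Rik in every group, and Igj spreads from 2.14 to 205.

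Irf4, the factor that starts the programme, was measured at 93.6, 134 and 112 CPM in the spleen HEL pos libraries (Pool, 392 and 399), at 260, 307 and 353 CPM in mLN and at 261, 261 and 258 CPM in PP. In BCL2 HEL pos cells (922, 926 and 950) it stood at 152, 180 and 144 CPM in spleen, 315, 395 and 327 CPM in mLN and 263, 399 and 287 CPM in PP. The HEL neg pools gave 118, 106 and 106 CPM in spleen, mLN and PP. Every mLN and PP library of either HEL pos kind therefore lay above every spleen library and every HEL neg pool. Among the mLN and PP groups, PP HEL pos (258 to 261 CPM) lay wholly below both BCL2 HEL pos groups. By group mean the order ran from mLN BCL2 HEL pos (345 ± 43.1 CPM, SD, n = 3) to the mLN HEL neg pool.

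Prdm1 was read from few counts. The HEL neg pools gave 6.69, 3.82 and 13.6 CPM in spleen, mLN and PP. HEL pos cells gave 3.81, 2.62 and 1.33 CPM in spleen, 4.38, 1.18 and 3.60 CPM in mLN and 2.18, 3.02 and 0.518 CPM in PP. The highest library of all was thus the PP HEL neg pool and the lowest was PP HEL pos 399, with 3 counts. BCL2 HEL pos cells gave 2.60, 2.54 and 2.13 CPM in spleen, 2.10, 3.65 and 4.21 CPM in mLN and 4.61, 5.18 and 3.68 CPM in PP. The HEL pos tissues overlapped, while PP BCL2 HEL pos lay wholly above spleen BCL2 HEL pos.

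Xbp1 varied least. It read 206, 182 and 211 CPM in spleen HEL pos, 303, 293 and 265 CPM in mLN HEL pos and 229, 212 and 251 CPM in PP HEL pos. Among BCL2 HEL pos libraries it read 194, 216 and 227 CPM in spleen, 235, 279 and 301 CPM in mLN and 224, 310 and 380 CPM in PP. Pooled HEL neg cells lay at 254, 275 and 305 CPM. The spleen groups of both HEL pos kinds were the lowest 2 of the 9 groups and overlapped each other. These counts are of all Xbp1 transcripts and do not separate the spliced form that encodes the active factor.

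Sdc1 gave 7.85, 11.3 and 6.49 CPM in spleen HEL pos, 46.2, 43.6 and 46.2 CPM in mLN HEL pos and 10.6, 17.1 and 22.6 CPM in PP HEL pos. In BCL2 HEL pos cells it gave 12.3, 9.25 and 12.9 CPM in spleen, 14.6, 27.1 and 25.1 CPM in mLN and 6.27, 7.36 and 11.4 CPM in PP. Levels in the HEL neg pools were 11.1, 9.56 and 5.22 CPM. The 3 mLN HEL pos libraries stood above the other 18 libraries with no overlap. Sdc1 is also a surface molecule of gut epithelium. Among the PP libraries the HEL neg pool had the highest epithelial sum (1265 CPM) and the lowest Sdc1, whereas within PP HEL pos the library 399 had both the highest epithelial sum (1133 CPM) and the highest Sdc1.

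Slamf7, a self-binding receptor used to recognise plasma cells, had the same leading group. It measured 56.5, 61.4 and 51.8 CPM in spleen HEL pos, 167, 194 and 174 CPM in mLN HEL pos and 87.1, 107 and 89.98 CPM in PP HEL pos. The BCL2 HEL pos libraries measured 67.8, 43.7 and 49.0 CPM in spleen, 109, 144 and 88.3 CPM in mLN and 51.4, 58.2 and 45.1 CPM in PP. The HEL neg pools lay at 82.1, 69.8 and 70.0 CPM, above every spleen HEL pos library. The mLN HEL pos libraries again exceeded all others, and spleen HEL pos, spleen BCL2 HEL pos and PP BCL2 HEL pos formed the 3 lowest groups and overlapped.

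Derl3, part of the machinery that removes misfolded proteins from the endoplasmic reticulum, gave 12.0, 15.0 and 13.1 CPM in spleen HEL pos, 65.6, 53.5 and 66.6 CPM in mLN HEL pos and 47.6, 35.1 and 17.8 CPM in PP HEL pos. In BCL2 HEL pos cells it gave 6.34, 4.05 and 7.97 CPM in spleen, 36.4, 40.8 and 44.8 CPM in mLN and 27.9, 24.8 and 21.0 CPM in PP. Pools of HEL neg cells gave 18.0, 15.1 and 24.9 CPM. Every library of mLN and PP HEL pos or BCL2 HEL pos cells lay above every spleen library of those cells, and the spleen BCL2 HEL pos group was the lowest of the 9 with no overlap.

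2010001M09Rik (Mzb1), a chaperone of marginal zone B and plasma cells, ran the other way. Its level was 438, 354 and 524 CPM in spleen HEL pos, 204, 170 and 150 CPM in mLN HEL pos and 147, 184 and 208 CPM in PP HEL pos. Among BCL2 HEL pos libraries it was 456, 443 and 382 CPM in spleen, 305, 310 and 280 CPM in mLN and 339, 262 and 265 CPM in PP, and the HEL neg pools gave 435, 402 and 387 CPM. The mLN and PP HEL pos groups overlapped at the bottom, below every other library.

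Igj gave 58.6, 24.2 and 156 CPM in spleen HEL pos, 7.27, 6.51 and 2.40 CPM in mLN HEL pos and 16.5, 25.5 and 38.7 CPM in PP HEL pos. Its BCL2 HEL pos levels were 349.9, 142 and 98.8 CPM in spleen, 59.6, 71.9 and 28.4 CPM in mLN and 76.0, 52.1 and 18.1 CPM in PP. The HEL neg pools stood at 348, 209 and 517 CPM in spleen, mLN and PP, above every HEL pos library. The mLN HEL pos libraries held 58, 66 and 18 counts and were the lowest 3 of all 21. In the spleen the libraries of 1 group lay far apart: the SD was 68.5 CPM on a mean of 79.7 CPM in spleen HEL pos and 134.3 CPM on a mean of 197 CPM in spleen BCL2 HEL pos.

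Pou2af1 measured 582, 637 and 578 CPM in spleen HEL pos, 432, 413 and 396 CPM in mLN HEL pos and 368, 448 and 388 CPM in PP HEL pos. Its BCL2 HEL pos levels were 603, 556 and 714 CPM in spleen, 461, 416 and 464 CPM in mLN and 525, 445 and 361 CPM in PP. Pooled HEL neg cells gave 836, 698 and 631 CPM. Spleen libraries of both HEL pos kinds lay above all mLN and PP libraries of those kinds.

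**Figure D2:**
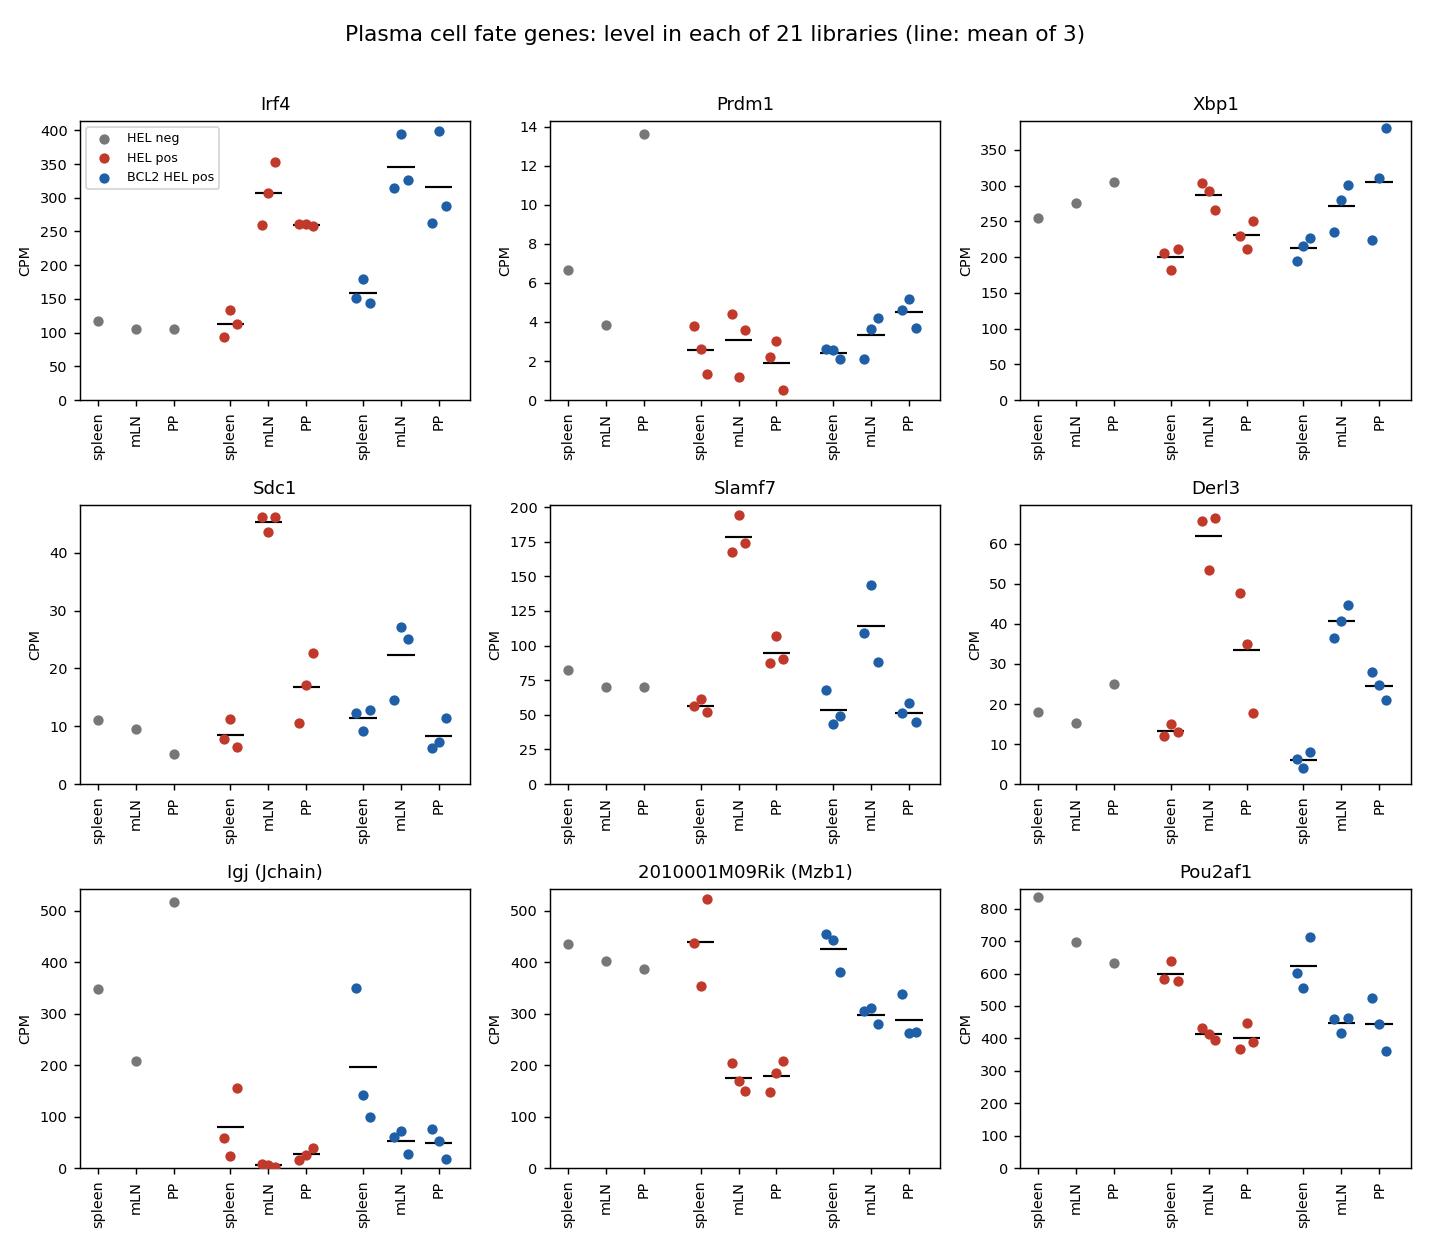
Level of each gene (CPM, vertical axes from 0) in every library, grouped by kind of cell and tissue; each point is 1 library and each line the mean of 3. Sdc1, Slamf7 and Derl3 are highest in mLN HEL pos (means 45.3, 178 and 61.9 CPM), where Igj is lowest (mean 5.39 CPM).

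Between mLN and spleen HEL pos cells, Irf4, Xbp1, the surface genes Sdc1 and Slamf7 and Derl3 were higher in mLN, and the joining chain, 2010001M09Rik and Pou2af1 were lower. Sdc1 differed by 2.42 ± 0.30 on the log2 scale (SE, adjusted p = 4.3e-06, 5.37-fold higher), Derl3 by 2.22 ± 0.27 (adjusted p = 3.3e-06, 4.67-fold higher) and Slamf7 by 1.67 ± 0.18 (adjusted p = 7.1e-07, 3.18-fold higher), by edgeR's quasi-likelihood test with Benjamini-Hochberg adjustment over all genes tested, as for every difference below unless stated. Irf4 was 2.73-fold higher (1.45 ± 0.17, adjusted p = 1.7e-06) and Xbp1 1.45-fold higher (0.53 ± 0.15, adjusted p = 0.013). Igj was 14.5-fold lower (-3.85 ± 0.68, adjusted p = 2.2e-04), 2010001M09Rik 2.50-fold lower (-1.32 ± 0.16, adjusted p = 4.7e-06) and Pou2af1 1.44-fold lower (-0.52 ± 0.13, adjusted p = 0.0065). Prdm1 differed by 0.22 ± 0.57 (adjusted p = 0.82). In all, 8 of the 9 genes passed an adjusted p of 0.05, 5 higher and 3 lower, against 24.5% of the 11419 genes tested (12.9% higher and 11.5% lower). The groups did not overlap for those 8, but the share of all genes without overlap was not counted, so no background stands beside this. Leaving out mLN Pool, spleen 392 or mLN 392 ended the Xbp1 call (adjusted p = 0.052, 0.078 and 0.057), while the other 7 calls held in all 25 alternatives. Granulocyte markers were lower in mLN in this comparison (4 of 4 tested), with sums of 48.2 to 190 CPM in spleen and at most 0.251 CPM in mLN, and 7 of 9 B cell markers were lower too. Plasmacytoid dendritic cell markers were higher in mLN (3 of 5 tested, 0 lower), with sums over 7 markers of 232 to 274 CPM against 127 to 172 CPM in spleen, while Siglech, which defines those cells, was 0.789 to 2.51 CPM in mLN and 0.59 to 2.00 CPM in spleen. Their part in the differences was not tested. Without spleen 399, which had the highest granulocyte sum, 8 genes were called, but spleen Pool and 392 still held 48.2 and 56.8 CPM. The share of all genes called in that fit is not reported here, so this count has no background.

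The other genes of the programme did not follow 1 direction in that comparison. Of 34 tested genes of a plasma cell programme list (the 9 genes left out), 5 were higher and 14 lower in mLN, with a median of -0.56 against -0.01 over all genes. Ccr9, the homing receptor for the small intestine and also on the plasmacytoid dendritic cell list, was higher (3.10 ± 0.47, adjusted p = 4.8e-05), and so was the adhesion molecule Epcam (1.36 ± 0.43, adjusted p = 0.023). Il5ra, an IL-5 receptor chain of B-1 and plasma cells, was lower (-1.85 ± 0.29, adjusted p = 7.7e-05), as was Cd93 (-1.36 ± 0.39, adjusted p = 0.014). Of 51 genes of the unfolded protein response and secretion, 23 were higher and 1 lower (median 0.42), among them the chaperones Sdf2l1 (1.55 ± 0.23) and Calr (1.06 ± 0.15), the disulfide isomerase Pdia6 (1.16 ± 0.19) and the stress factor Ddit3 (1.09 ± 0.18), with adjusted p-values between 1.9e-05 and 1.2e-04. Of 27 genes of the B cell programme that plasma cells lose, 3 were higher and 13 lower (median -0.33). The complement receptor Cr2 (-2.42 ± 0.19), Ms4a1, which encodes CD20 (-1.5 ± 0.13), the factor Ets1 (-1.5 ± 0.20) and the follicle-homing receptor Cxcr5 (-1.48 ± 0.15) were lower, with adjusted p of at most 1.3e-05. Of 16 partner factors of IRF4 and OCA-B, 4 were higher and 7 lower. Batf, which binds DNA jointly with IRF4, was higher (2.09 ± 0.17, adjusted p = 1.6e-08), and Spib, an Ets-family partner of IRF4, was lower (-1.17 ± 0.15, adjusted p = 6.1e-06).

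PP HEL pos cells differed from spleen HEL pos cells, the same spleen libraries as above, in 6 of the genes. Irf4 was 2.31-fold higher (1.21 ± 0.17, adjusted p = 4.8e-05), Derl3 2.52-fold higher (1.34 ± 0.27, adjusted p = 0.0016), Slamf7 1.68-fold higher (0.75 ± 0.18, adjusted p = 0.0059) and Sdc1 1.97-fold higher (0.98 ± 0.30, adjusted p = 0.030). 2010001M09Rik was 2.44-fold lower (-1.28 ± 0.16, adjusted p = 2.4e-05) and Pou2af1 1.49-fold lower (-0.57 ± 0.13, adjusted p = 0.0057). Igj differed by -1.57 ± 0.59 (adjusted p = 0.077), Xbp1 by 0.21 ± 0.15 (adjusted p = 0.39) and Prdm1 by -0.43 ± 0.59 (adjusted p = 0.68). Thus 6 of 9 genes were called, 4 higher and 2 lower, against 15.4% of all genes (7.94% higher and 7.43% lower). The Sdc1 groups overlapped, and its call ended without spleen Pool, spleen 399, PP 392 or PP 399 (adjusted p = 0.10, 0.12, 0.057 and 0.16), while Igj passed without spleen 392 (-2.02, adjusted p = 0.022) and with the library number as a replicate block (-1.39, adjusted p = 0.016). Of the epithelial markers 12 of 15 were higher in PP. Without the PP libraries 399 and Pool, whose epithelial sums were 1133 and 737 CPM, the Pou2af1 call did not hold. That fit left PP 392 alone in its group. Without the 3 pooled libraries Derl3 and Pou2af1 moved to an adjusted p of 0.056 and 0.053. Of the lists, the unfolded protein response and secretion had 5 genes higher and 2 lower of 51 and the plasma cell programme 3 higher and 8 lower of 34. Batf was again higher (1.29 ± 0.16, adjusted p = 2.4e-05).

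Set directly against mLN HEL pos cells, PP HEL pos cells had less Sdc1, Slamf7 and Derl3 and more joining chain. Sdc1 was 2.72-fold lower in PP (-1.44 ± 0.28, adjusted p = 0.0035), Slamf7 1.90-fold lower (-0.92 ± 0.17, adjusted p = 0.0024) and Derl3 1.85-fold lower (-0.89 ± 0.25, adjusted p = 0.032), and Igj was 4.86-fold higher (2.28 ± 0.68, adjusted p = 0.040). Irf4 (-0.24 ± 0.16, adjusted p = 0.37), 2010001M09Rik (0.04 ± 0.16, adjusted p = 0.91) and Pou2af1 (-0.05 ± 0.13, adjusted p = 0.85) did not pass. These 4 of 9 calls, 1 higher and 3 lower, stand against 8.86% of all genes (5.34% higher and 3.52% lower). The Derl3 and Igj calls ended without mLN Pool, mLN 392, mLN 399 or PP 399, with adjusted p of 0.066 to 0.11 for the mLN libraries in Derl3 and 0.13 for PP 399, and 0.069 to 0.15 in Igj, so that 2 genes were called. Without PP 399 and Pool together the Sdc1 and Slamf7 calls did not hold either, but PP 392 then stood alone in its group. The share of all genes called in that fit is not reported here. Of 51 genes of the unfolded protein response and secretion 1 was higher and 13 lower in PP, and of 27 genes of the B cell programme 8 were higher and 0 lower. Of the epithelial markers 13 of 15 were higher in PP (sums of 264 to 1133 CPM against 41.1 to 48.6 CPM in mLN), and 4 of 9 B cell markers were higher. Their part in the differences was not tested.

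BCL2 HEL pos cells showed genes of the set both higher and lower in mLN than in spleen. Derl3 was 6.59-fold higher in mLN (2.72 ± 0.29, adjusted p = 3.1e-06), Irf4 2.16-fold higher (1.11 ± 0.16, adjusted p = 1.5e-04), Slamf7 2.11-fold higher (1.08 ± 0.18, adjusted p = 4.3e-04) and Sdc1 1.92-fold higher (0.94 ± 0.29, adjusted p = 0.042). Igj was 3.73-fold lower (-1.90 ± 0.57, adjusted p = 0.039), 2010001M09Rik 1.45-fold lower (-0.53 ± 0.16, adjusted p = 0.039) and Pou2af1 1.41-fold lower (-0.50 ± 0.13, adjusted p = 0.020). Xbp1 (0.34 ± 0.15, adjusted p = 0.19) and Prdm1 (0.44 ± 0.57, adjusted p = 0.72) did not pass. With the library number as a replicate block Xbp1 passed (0.33, adjusted p = 0.046), and it was higher in mLN within each of the 3 numbers. Without the block that is 7 of 9, 4 higher and 3 lower, against 10.0% of all genes (5.77% higher and 4.23% lower). The calls of Irf4, Slamf7 and Derl3 held with each library left out. Those of Sdc1 ended without any of 8 libraries (spleen 922, 926 or 950, mLN 926 or 950, or any mLN HEL pos library, whose spread the fit shares), and those of Igj and 2010001M09Rik without spleen 922, spleen 926 or any mLN BCL2 HEL pos library. The Pou2af1 call ended without mLN 926, mLN 950 or spleen 950. Without spleen 922, Igj differed by -1.19 (adjusted p = 0.27), and at the lowest 3 genes were called. In these cells granulocyte markers were at most 0.463 CPM in spleen and 0.42 CPM in mLN, and 13 of 51 genes of the unfolded protein response and secretion were higher and 0 lower.

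Between PP and spleen BCL2 HEL pos cells, Derl3 was 3.96-fold higher in PP (1.98 ± 0.28, adjusted p = 1.4e-04) and Irf4 1.96-fold higher (0.97 ± 0.16, adjusted p = 6.7e-04), and both calls held with each library left out. Igj was 4.14-fold lower (-2.05 ± 0.58, adjusted p = 0.032), 2010001M09Rik 1.5-fold lower (-0.59 ± 0.16, adjusted p = 0.028) and Pou2af1 1.43-fold lower (-0.52 ± 0.13, adjusted p = 0.020). Slamf7 (-0.08 ± 0.18, adjusted p = 0.88), Sdc1 (-0.47 ± 0.30, adjusted p = 0.44) and Xbp1 (0.50 ± 0.15, adjusted p = 0.053) did not pass. Here 5 of 9 were called, 2 higher and 3 lower, against 7.34% of all genes (4.81% higher and 2.53% lower). Leaving out spleen 922, PP 926 or PP 950 ended the calls of Igj, 2010001M09Rik and Pou2af1; spleen 926 decided 2010001M09Rik too and spleen 950 Pou2af1, and at the lowest 2 genes were called. Xbp1 passed with the replicate block (0.47, adjusted p = 0.0071), without PP 922 (0.68, adjusted p = 0.0043) and without PP HEL pos 399 (0.51, adjusted p = 0.041). Against mLN BCL2 HEL pos cells, PP cells had 2.66-fold less Sdc1 (-1.41 ± 0.29, adjusted p = 0.018) and 2.23-fold less Slamf7 (-1.15 ± 0.18, adjusted p = 0.0020), and these were the 2 of 9 called, against 1.16% of all genes (0.806% higher and 0.350% lower). The Sdc1 call ended without PP 922, PP 926, mLN 926 or mLN 950 (adjusted p = 0.084 to 0.15) and that of Slamf7 held. Derl3 did not overlap between the 2 groups but did not pass (-0.74 ± 0.25, adjusted p = 0.22).

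**Figure D3:**
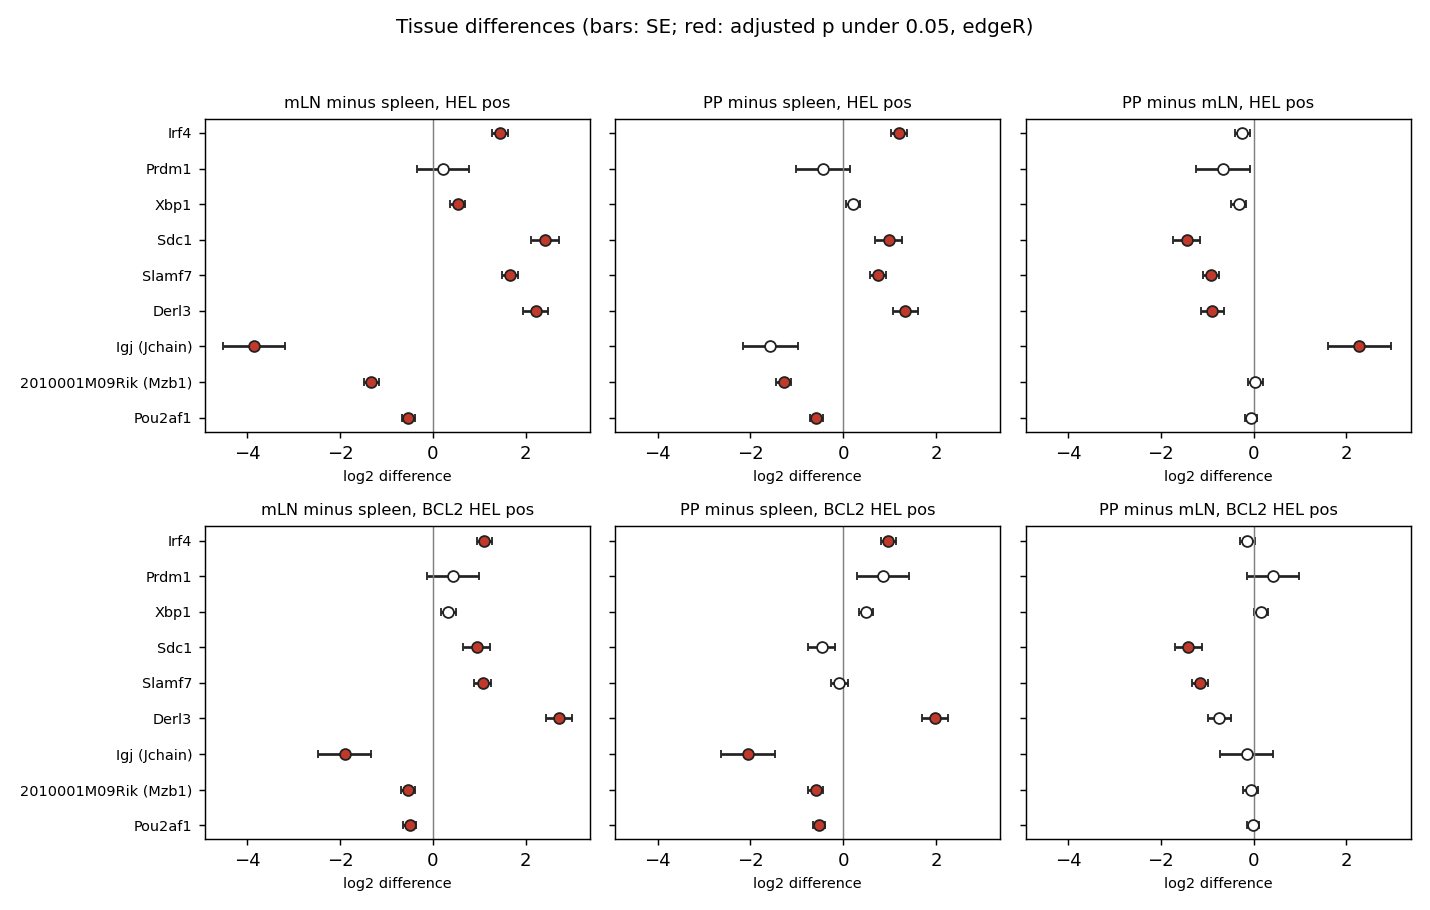
Log2 difference between tissues for each gene, with its SE as bars, in HEL pos cells (upper row) and BCL2 HEL pos cells (lower row); red points have an adjusted p under 0.05 and white points do not. In both mLN minus spleen panels Irf4, Sdc1, Slamf7 and Derl3 lie right of 0 and Igj, 2010001M09Rik and Pou2af1 left of it, from 2.72 for Derl3 to -3.85 for Igj.

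Derl3 and Igj were also set side by side in every library. The mLN HEL pos libraries joined the highest Derl3 (53.5 to 66.6 CPM) with the lowest Igj (2.40 to 7.27 CPM). The spleen BCL2 HEL pos libraries joined the lowest Derl3 (4.05 to 7.97 CPM) with Igj of 98.8 to 349.9 CPM. The HEL neg pools fell outside that order, with Derl3 of 15.1 to 24.9 CPM and Igj of 209 to 517 CPM, since both genes were highest there in PP. Within PP HEL pos cells the libraries lay in opposite order for the 2 genes, from Pool (Derl3 47.6, Igj 16.5 CPM) to 399 (Derl3 17.8, Igj 38.7 CPM), which is also the order of the share of epithelial transcripts in those 2 libraries, 737 and 1133 CPM. Library 392 lay between them in both genes but had the lowest epithelial sum, 264 CPM. In PP BCL2 HEL pos cells the libraries lay in the same order for both genes, from 922 (Derl3 27.9, Igj 76.0 CPM) over 926 (24.8 and 52.1 CPM) to 950 (21.0 and 18.1 CPM).

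**Figure D4:**
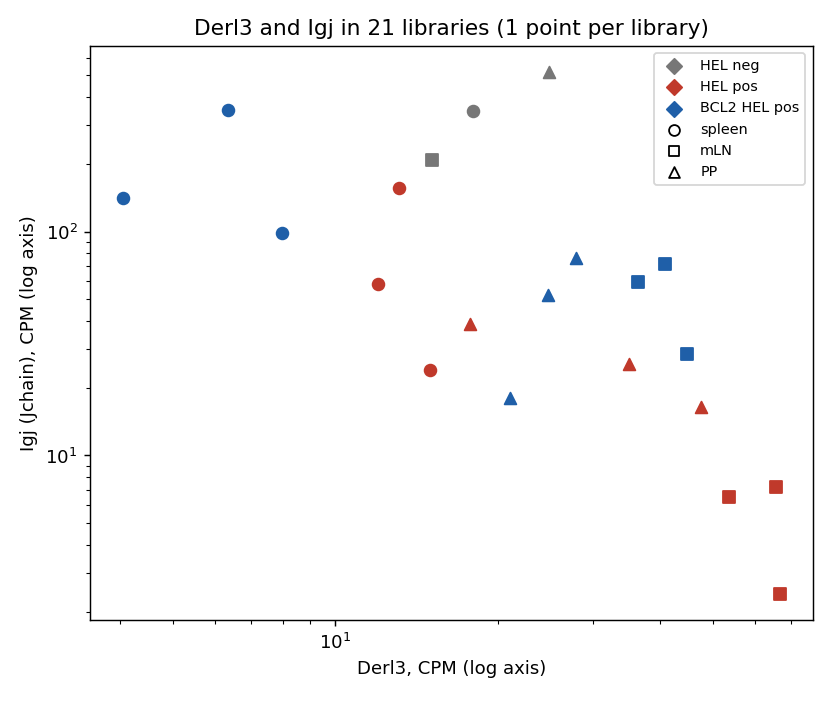
Derl3 (horizontal) against Igj (vertical), both in CPM on log axes, with 1 point for each of the 21 libraries, coloured by kind of cell and shaped by tissue. The 3 mLN HEL pos libraries sit at the lower right (Igj 2.40 to 7.27 CPM) and the 3 HEL neg pools at the top (Igj 209 to 517 CPM).

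BCL2 HEL pos and HEL pos cells were then compared within each tissue. In spleen Derl3 was 2.17-fold lower in BCL2 HEL pos cells (-1.12 ± 0.29, adjusted p = 0.018) and was the only 1 of 9 called, against 9.37% of all genes (4.55% higher and 4.82% lower). Irf4 (0.50 ± 0.16, adjusted p = 0.059) did not overlap between the groups but did not pass, and Igj differed by 1.31 ± 0.56 (adjusted p = 0.15). The Derl3 call ended without spleen HEL pos 392, BCL2 HEL pos 922 or BCL2 HEL pos 926 (adjusted p = 0.059, 0.051 and 0.11). Irf4 passed without PP BCL2 HEL pos 926 (adjusted p = 0.041), and Igj without spleen HEL pos 399 (2.25, adjusted p = 0.030). The 4 granulocyte markers tested were lower in BCL2 HEL pos cells, and their part was not tested.

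In mLN, Igj was 9.64-fold higher in BCL2 HEL pos cells (3.27 ± 0.67, adjusted p = 0.0029) and 2010001M09Rik 1.69-fold higher (0.76 ± 0.16, adjusted p = 0.0039), both with each library left out as well. Sdc1 was 2.05-fold lower (-1.04 ± 0.28, adjusted p = 0.019) and Slamf7 1.58-fold lower (-0.66 ± 0.17, adjusted p = 0.015). Irf4 differed by 0.16 ± 0.16 (adjusted p = 0.59) and Derl3 by -0.62 ± 0.25 (adjusted p = 0.12). These 4 of 9, 2 higher and 2 lower, compare with 11.7% of all genes (5.78% higher and 5.90% lower). The Sdc1 call ended without mLN HEL pos 392, HEL pos 399 or BCL2 HEL pos 922 (adjusted p = 0.055, 0.063 and 0.11) and the Slamf7 call without HEL pos 392, BCL2 HEL pos 922 or 950 (0.076, 0.064 and 0.12), which leaves 2 calls, while Derl3 passed without PP HEL pos 399 (adjusted p = 0.039). Of the unfolded protein response and secretion list 16 of 51 genes were lower and 0 higher, such as the chaperone Hsp90b1 (-1.08 ± 0.21, adjusted p = 0.0019) and Pdia6 (-0.96 ± 0.19, adjusted p = 0.0018). T and NK cell markers were lower too (7 of 11), with sums of 23.9 to 78.9 CPM in mLN HEL pos and 14.4 to 16.0 CPM in mLN BCL2 HEL pos; Cd3e was 2.00 to 10.2 and 0.28 to 1.12 CPM. Their part was not tested.

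In PP, Slamf7 was 1.86-fold lower in BCL2 HEL pos cells (-0.89 ± 0.18, adjusted p = 0.0031), Sdc1 2.01-fold lower (-1.0 ± 0.30, adjusted p = 0.036) and 2010001M09Rik 1.59-fold higher (0.67 ± 0.16, adjusted p = 0.012). These were 3 of 9, 1 higher and 2 lower, against 10.1% of all genes (5.33% higher and 4.74% lower). The Slamf7 call held with each library left out. The Sdc1 groups overlapped and its call ended without PP HEL pos 392 or 399 or BCL2 HEL pos 922 or 926 (adjusted p = 0.053 to 0.17), and that of 2010001M09Rik without BCL2 HEL pos 922 (0.54, adjusted p = 0.063). Xbp1 passed without BCL2 HEL pos 922 (0.57, adjusted p = 0.020) and Derl3 without HEL pos 399 (-0.77, adjusted p = 0.038). Of 15 epithelial markers 8 were lower in BCL2 HEL pos cells (sums of 42.6 to 191 CPM against 264 to 1133 CPM), and their part was not tested.

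Whether the tissue differences themselves differed between BCL2 HEL pos and HEL pos cells was tested as an interaction. By edgeR 0 of 9 genes passed for mLN minus spleen, against 0.385% of all genes, and 0 of 9 for PP minus spleen, against 0.00876%. At an unadjusted p under 0.05 the counts were 4 and 3, and DESeq2 called 2 and 0. The percentages above are for edgeR's adjusted p and are no background for these counts. For mLN minus spleen the interaction (BCL2 HEL pos minus HEL pos) was -1.48 ± 0.41 for Sdc1 on the log2 scale (adjusted p = 0.14) and 0.79 ± 0.23 for 2010001M09Rik (adjusted p = 0.17). DESeq2 placed both at an adjusted p of 0.042. With the library number as a replicate block the Sdc1 interaction passed in edgeR too, with values given at the end of the text. For Igj the interaction was 1.96 ± 0.86 (adjusted p = 0.48) and for Derl3 0.50 ± 0.38 (adjusted p = 0.79).

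HEL neg cells gave 1 pool per tissue, so they were compared with the other kinds over the 3 tissues together. In each such comparison the 9 other libraries entered as independent, although the same 3 names recur in every tissue. No replicate block was run here, and same-named libraries deviated together, so these p-values may be too small. Igj was 16.8-fold lower in HEL pos than in HEL neg cells (-4.07 ± 0.49, adjusted p = 2.2e-04), with no overlap between any of the 9 and the 3 libraries. 2010001M09Rik was 1.76-fold lower (-0.81 ± 0.19, adjusted p = 0.018) and Pou2af1 1.55-fold lower (-0.63 ± 0.11, adjusted p = 0.0029), and Irf4 was 1.80-fold higher (0.85 ± 0.24, adjusted p = 0.039). The differences of all 9 genes average over the tissues, in which HEL pos cells and the pools did not always differ alike. Mean Irf4 in HEL pos cells against the pool was 113 and 118 CPM in spleen, 306 and 106 in mLN and 260 and 106 in PP. For 2010001M09Rik these values were 439 and 435 CPM in spleen, 175 and 402 in mLN and 180 and 387 in PP. Derl3 gave 13.4 and 18.0 CPM in spleen, 61.9 and 15.1 in mLN and 33.5 and 24.9 in PP. Sdc1 gave 8.53 and 11.1, 45.3 and 9.56, and 16.8 and 5.22 CPM in the same order. Slamf7 gave 56.6 and 82.1, 178 and 69.8, and 94.7 and 70.0 CPM. Igj gave 79.7 and 348, 5.39 and 209, and 26.9 and 517 CPM. Prdm1 differed by -1.65 ± 0.55 (adjusted p = 0.073), Sdc1 by 1.02 ± 0.41 (adjusted p = 0.13), Derl3 by 0.54 ± 0.36 (adjusted p = 0.39), Slamf7 by 0.33 ± 0.24 (adjusted p = 0.44) and Xbp1 by -0.23 ± 0.12 (adjusted p = 0.25). Thus 4 of 9 were called, 1 higher and 3 lower, against 8.68% of 11406 genes (3.46% higher and 5.22% lower). The Irf4 call ended without any of 7 single libraries, and most when the mLN or PP HEL neg pool was left out (0.54, adjusted p = 0.31, and 0.65, adjusted p = 0.28); the others were mLN Pool, 392 and 399, spleen 392 and PP 392 of HEL pos cells. The same 2 pools ended the 2010001M09Rik call. Without the spleen HEL neg pool, which leaves mLN and PP, Sdc1 (1.98, adjusted p = 0.0014) and Slamf7 (0.86, adjusted p = 0.0095) passed.

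BCL2 HEL pos cells differed from HEL neg cells in Irf4, Igj, Prdm1 and Pou2af1. Irf4 was 2.26-fold higher (1.17 ± 0.21, adjusted p = 0.0011, with no overlap), and Igj was 4.79-fold lower (-2.26 ± 0.44, adjusted p = 0.0023), Prdm1 2.27-fold lower (-1.18 ± 0.31, adjusted p = 0.018) and Pou2af1 1.45-fold lower (-0.54 ± 0.12, adjusted p = 0.0063). These 4 of 9, 1 higher and 3 lower, stand against 14.7% of 10987 genes (6.56% higher and 8.10% lower). The Prdm1 call ended without the spleen or the PP HEL neg pool (adjusted p = 0.086 and 0.19) and the Igj call without the PP pool (-1.43, adjusted p = 0.065), while 2010001M09Rik passed without the spleen pool (-0.44, adjusted p = 0.032). Both comparisons share the same 3 pools. In both, 7 of 7 germinal centre B cell markers were lower outside HEL neg cells: their sum was 232, 377 and 638 CPM in the spleen, mLN and PP HEL neg pools and 20.2 to 49.8 CPM in all other libraries. Siglech, a marker of plasmacytoid dendritic cells, lay at 7.24 to 36.0 CPM in the HEL neg pools and at most 4.37 CPM elsewhere. The part of those cells in the Igj and Prdm1 levels was not tested.

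**Figure D5:**
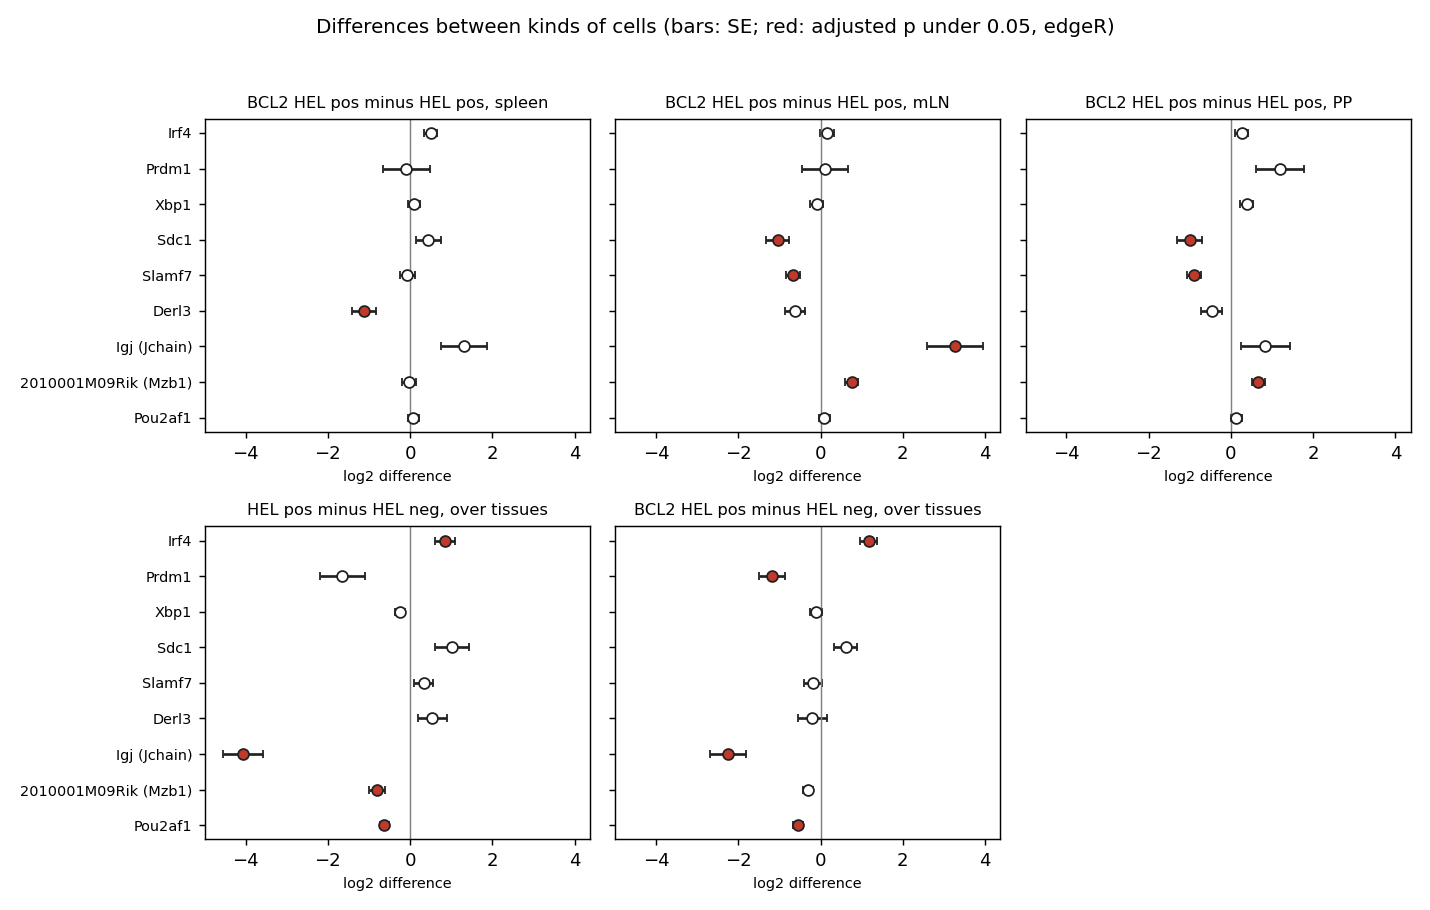
Log2 difference between kinds of cells for each gene, with its SE as bars: BCL2 HEL pos minus HEL pos within each tissue (upper row) and each kind minus HEL neg over the tissues (lower row); red points have an adjusted p under 0.05. Igj lies at 3.27 in mLN in the upper row and at -4.07 and -2.26 in the lower row.

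The HEL neg pools, which have no replicates, gave other tissue ratios. In the pools the mLN level over the spleen level was 0.898 for Irf4, 0.865 for Sdc1, 0.850 for Slamf7, 0.840 for Derl3 and 0.602 for Igj. The PP level over the spleen level was 1.49 for Igj, 1.38 for Derl3, 2.04 for Prdm1 and 0.472 for Sdc1. In a fit of all 21 libraries added after the values were seen, in which each lone pool is assumed to vary like the other groups, the mLN minus spleen difference of HEL pos cells differed from that of HEL neg cells for 5 of 9 genes, 4 higher (Irf4, Sdc1, Slamf7 and Derl3) and 1 lower (2010001M09Rik), against 3.55% of all genes (1.70% higher and 1.85% lower). For BCL2 HEL pos cells it differed for Derl3, 1 of 9, against 0.400% (0.349% higher and 0.0511% lower). For PP minus spleen edgeR called 0 of 9 in HEL pos cells (0.272% of all genes) and 0 of 9 in BCL2 HEL pos cells (0.443%), with 4 and 3 at an unadjusted p under 0.05 and 2 and 0 by DESeq2. Those percentages are for edgeR's adjusted p and are no background for the unadjusted or DESeq2 counts.

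As a description, each gene was set beside the genes whose log2 CPM followed it most closely over the 21 libraries, among 8365 genes. The libraries share tissues, kinds of cells and library numbers, so these correlations carry no test. Irf4 was closest to Irs2 (Pearson r = 0.954), Ddit3 (0.949) and Axl (0.947). Derl3 was closest to Cdk4 (0.939), Fam167a (0.915) and Tomm40 (0.911), Slamf7 to Sp140 (0.919), Atp5b (0.915) and Lcmt1 (0.90) and Sdc1 to Ppa2 (0.890), Prkcd (0.873) and Ticam2 (0.862). Igj was closest to Pitpnc1 (0.898), Cdc25b (0.895) and Ikzf3 (0.872), 2010001M09Rik to Sh3bp5 (0.922), Rdh12 (0.920) and Def6 (0.916) and Pou2af1 to Snrnp25 (0.905), Kcnab2 (0.898) and Vars (0.886). Xbp1 (Slc31a1 0.864, Cirh1a 0.827, Aldoa 0.816) and Prdm1 (Nat6 0.764, Socs1 0.763, Srsf4 0.754) had looser companions. None of the 9 genes was among the 3 closest genes of another.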

How the data were processed

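RNA of sorted B cells was sequenced in 21 libraries with single-end reads, per the labels' protocols, which list 2 kits (TruSeq, Nextera XT), so strand was not relied on. The values are whole-number counts per gene symbol, as deposited by the authors; STAR, HTSeq, DESeq2 and build mm10 are named in the submitters' processing notes, with roles, versions and settings not given in the sources used here. From them, edgeR 4.0.16 in R 4.3.3 was run (filterByExpr, TMM, glmQLFit, glmQLFTest, two-sided, Benjamini-Hochberg, call at an adjusted p under 0.05). One fit of the 18 HEL pos and BCL2 HEL pos libraries in 6 groups gave the tissue, BCL2 and interaction comparisons; fits of 12 libraries with tissue as covariate gave those with HEL neg. SE is the log2 difference divided by the square root of F. CPM uses TMM-scaled totals. Named were all 9 genes, at most 4 called genes per list whose average log2 CPM reached 3, and the 3 most correlated genes per member; some named list genes are not reported here. Alternatives were DESeq2 1.42.0, its size factors, no low-count filter, single libraries left out, the pooled libraries or PP HEL pos 399 and Pool left out, the libraries compared alone, and a replicate block. The members and lists were chosen with earlier results of these data known. The fit of 18 libraries was checked on simulated counts, drawn as independent libraries, for mLN minus spleen in HEL pos cells only. The fits with HEL neg pools and shared library numbers were not checked in this way. Same-numbered libraries deviated together (r over 0.1 in all 3 pairs) in each comparison of 2 tissues except mLN and spleen HEL pos. There, 2 of 3 pairs did. The pairing comes from the data, not the labels. Blocked values stand beside the tissue comparisons whose call they change, and those of the Sdc1 interaction stand at the end of the text.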

Additional observations from a re-analysis of the deposited data

Results flagged for a closer look

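The difference between mLN and spleen was compared with the same difference in the HEL neg pools in a fit of all 21 libraries (11750 genes, edgeR), chosen after the values were seen. Because each HEL neg pool is a single library, it is assumed to vary like the libraries of the other groups. In HEL pos cells the difference exceeded that of HEL neg cells by 1.58 ± 0.33 on the log2 scale for Irf4 (SE, adjusted p = 0.011), by 2.61 ± 0.62 for Sdc1 (adjusted p = 0.021), by 1.89 ± 0.35 for Slamf7 (adjusted p = 0.0050) and by 2.46 ± 0.55 for Derl3 (adjusted p = 0.015). For 2010001M09Rik it was lower by -1.22 ± 0.32 (adjusted p = 0.038), a call that ended without any of 8 single libraries (spleen HEL pos Pool or 399, mLN HEL pos 392 or 399, mLN BCL2 HEL pos 922, 926 or 950, or spleen BCL2 HEL pos 926; adjusted p of 0.050 to 0.097). For Igj it was -3.14 ± 1.18 (adjusted p = 0.18). These 5 of 9 genes compare with 3.55% of all genes. In BCL2 HEL pos cells Derl3 alone passed (2.98 ± 0.56, adjusted p = 0.023), 1 of 9 against 0.400% of all genes. For PP minus spleen 0 of 9 passed in either kind of cell (0.272% and 0.443% of all genes), with 4 and 3 at an unadjusted p under 0.05 and 2 and 0 by DESeq2. The unadjusted and DESeq2 counts have no share of all genes beside them here.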

How the results depend on the processing

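Over 153 results and 3555 alternatives, 0 of the 54 called differences reversed, 1153 of 1262 alternatives of called differences kept the call and 109 lost it; 51 alternatives of uncalled differences gained one. The counts of called genes (of 9) changed by over 1.5 times as follows. The shares of all genes called under each alternative are not reported here, so these counts have no background beside them. DESeq2 called 2 for BCL2 HEL pos minus HEL pos in spleen, 2 for the mLN minus spleen interaction with BCL2, and, in the comparison of tissue differences with HEL neg, 2 for PP in HEL pos and 3 for mLN in BCL2 HEL pos. With no low-count filter these counts were 3, 3, 3 and 4, with 1 for the PP interaction and 2 for PP BCL2 HEL pos against HEL neg; Igj in PP minus spleen HEL pos moved from an adjusted p of 0.077 to 1.6e-16 there, the cause was not tested. With only the libraries compared, BCL2 HEL pos minus HEL pos gave 2 in spleen and 1 in PP. Without the 3 pooled HEL pos libraries PP minus mLN HEL pos gave 2. Without PP HEL pos 399 and Pool it gave 0, and BCL2 HEL pos minus HEL pos in PP gave 1, with fewer samples. The pooled libraries alone gave 1 for HEL pos minus HEL neg. With single libraries left out the counts were 7 to 8 for mLN minus spleen and 5 to 7 for PP minus spleen in HEL pos, 2 to 4 for PP minus mLN in HEL pos, 3 to 7, 2 to 6 and 1 to 2 for the same comparisons in BCL2 HEL pos, 0 to 2, 2 to 5 and 2 to 3 for BCL2 HEL pos minus HEL pos in spleen, mLN and PP, 2 to 6 for HEL pos and 2 to 4 for BCL2 HEL pos minus HEL neg, and 4 to 5 for mLN minus spleen against HEL neg in HEL pos.

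With the library number as a replicate block the mLN interaction with BCL2 had 1 gene called instead of 0 (Sdc1, -1.51, adjusted p = 0.047), and the tissue comparisons had 8, 7 and 4 genes called in HEL pos and 8, 6 and 2 in BCL2 HEL pos. The block gained the Igj call for PP minus spleen in HEL pos. It gained the Xbp1 calls for mLN and PP minus spleen in BCL2 HEL pos, and changed no other call of a tissue comparison or interaction. The shares of all genes called with the block are not reported here, so its counts have no background beside them. Pairing correlations of same-numbered libraries were 0.092 to 0.527, and 16 of 18 libraries correlated best with their own number, a hint from the data. Counts as low as 3 to 81 limit what can be said of Prdm1.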
